A study of Mus musculus with 9 samples.

Results

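Collagen chains, laminin chains, integrin subunits and 10 other matrix genes were followed in MC38 cells, a mouse colon carcinoma line, whose messenger RNA had been sequenced. The members were chosen by gene symbol alone, with no measured value in the rule: symbols of the Col, Lam, Itga and Itgb families, plus Fn1, Sparc, Lox, Loxl1, Loxl2, Nid1, Nid2, Hspg2, Fbn1 and Thbs1. The rule found 85 of the 16509 genes in the table, of which 59 passed the filter on low counts and were tested among 11949 genes. The group of genes was proposed with earlier results of these data known, so counts over it are a description and support nothing by themselves.

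Control cells (Ctrl), cells given Cu-Cys and cells given Cadict had 3 libraries each. Cu-Cys is a copper and cystine preparation. Cadict is a nanodrug of copper coordinated with cystine that also holds glucose oxidase. Its surface bears the GE11 peptide, which binds the epidermal growth factor receptor. The sample labels give the control treatment as DMSO and the study's text gives it as PBS. No dose or treatment time is given for these libraries. The study's text describes its replicates in general as biological, while the labels do not say how these libraries were cultured, so p-values measure only the spread between libraries. The columns of Cadict were matched to that group by inference from its components. MC38 is 1 cell line grown without other cells, and in such bulk RNA fewer cells and less RNA per cell cannot be told apart.

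Collagens are triple helices of 3 chains: the fibril-forming types make tensile fibers, type IV makes the mesh of basement membranes, and type VI makes beaded filaments at the cell surface. Laminins are trimers of 1 alpha, 1 beta and 1 gamma chain that seed the basement membrane. Integrins are pairs of 1 alpha and 1 beta subunit that bind these proteins outside the cell and link them to the actin cytoskeleton.

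Library totals were 17905771 to 18293056 counts, and levels are given as CPM, read counts relative to the library total on edgeR's TMM scale. The upper limit for a gene seen at 0, taken as 3 counts, was 0.130 to 0.131 CPM in Ctrl, 0.137 to 0.138 in Cu-Cys and 0.252 to 0.262 in Cadict libraries on that scale, for counting error only. Levels of different genes are compared as FPKM, which also divides by transcript length. The TMM factors were 1.262 to 1.274 in Ctrl, 1.206 to 1.209 in Cu-Cys and 0.6395 to 0.6654 in Cadict libraries. Changes with Cadict are therefore relative: over all tested genes the median log2 change from Ctrl was -0.13 under TMM, and -1.08 where library totals did the scaling. Cadict replicate 2 stood apart, with a chi-square per degree of freedom of 14.7 and 23.1 against its 2 partners, where other pairs of replicates had 1.88 to 4.53. The epithelial markers Epcam and Krt18 reached at most 4 and 2 counts in any library. The epithelial markers Cdh1 and Krt19 were at 4.86 and 1.06 CPM in Ctrl and rose with Cadict to 12.8 and 10.8 CPM on the TMM scale. Vim, a mesenchymal marker, was at 2056 CPM in Ctrl libraries.

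The members' share of all counts was 1.34% ± 0.0132 in Ctrl (SD, n = 3), 1.09% ± 0.0243 in Cu-Cys (SD, n = 3) and 0.703% ± 0.0532 in Cadict libraries (SD, n = 3). On the TMM scale their summed CPM was 10540, 9014 and 10740 in the same order. A gene was called where the fold change was at least 2 and the adjusted p at most 0.001 (quasi-likelihood test of edgeR, Benjamini-Hochberg over every tested gene). In Cu-Cys against Ctrl, 9 of 59 members (15.2%) were called lower and 0 higher, where 1.47% of all tested genes were called lower and 0.167% higher. At an adjusted p of at most 0.05 without a limit on the fold change, 29 members (49.1%) were lower and 4 (6.78%) higher, beside 22.4% and 22.6% of all tested genes. In Cadict against Ctrl, 16 members (27.1%) were called lower and 10 (16.9%) higher, beside 27.1% and 20.7% of all tested genes, so these shares lay near the background. In Cadict against Cu-Cys, 10 members were called lower and 11 higher, beside 23.6% and 18.6% of all tested genes, also near it. The members had a median log2 change of -0.32 with Cu-Cys and -0.41 with Cadict from Ctrl, and of -0.05 from Cu-Cys to Cadict. Over all tested genes these medians were 0.01, -0.13 and -0.10. The comparisons against Ctrl share the Ctrl libraries, and all 3 come from one fit.

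**Figure D1:**
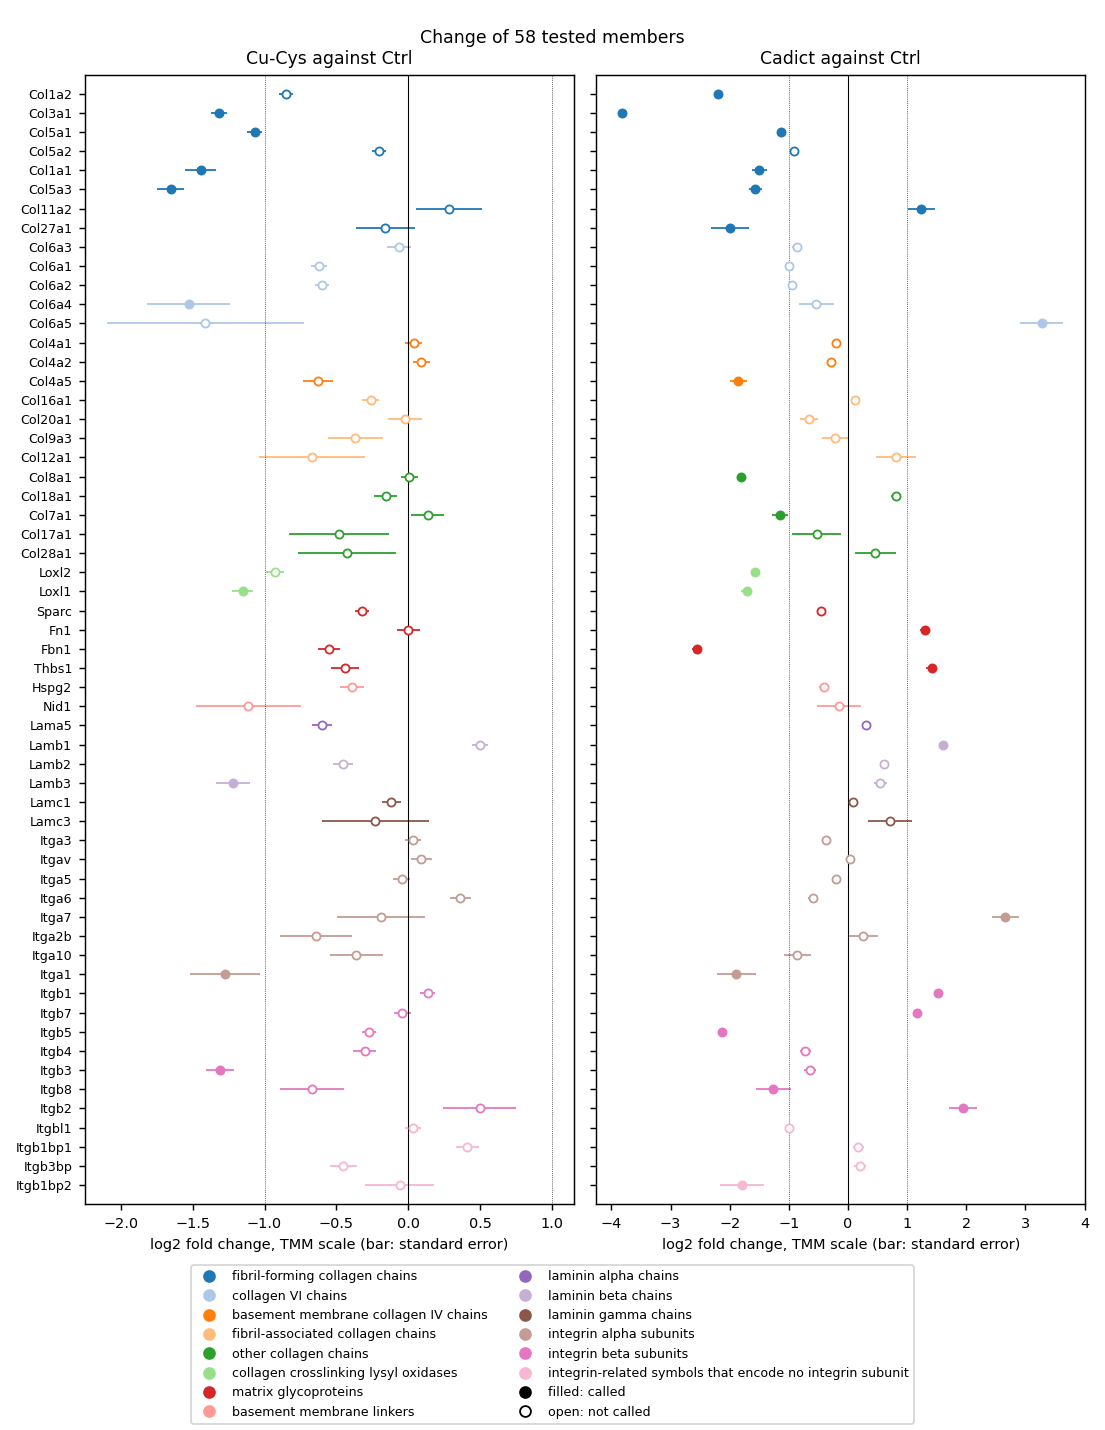
Log2 fold change on the TMM scale (x axis, bars are standard errors) of 58 of the 59 tested members (y axis), grouped by role, for Cu-Cys and for Cadict against Ctrl. Filled points were called, and dotted lines mark a 2-fold change. With Cu-Cys every called point lies on the left, while with Cadict 9 lie on the right and 16 on the left.

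Fibril-forming collagens were mostly lower, and Col3a1 had the largest fall with Cadict of any tested member. Of their 10 chains 8 were tested. On the TMM scale 4 were called lower with Cu-Cys, beside 1.47% of all tested genes. With Cadict 6 were called lower and 1 higher, beside 27.1% and 20.7% of all tested genes. Col3a1, the single chain of type III collagen (Entrez 12825), had 387.9, 353.3 and 364.6 CPM in the Ctrl libraries, 141.3, 151.5 and 150.4 with Cu-Cys and 28.9, 24.8 and 24.9 with Cadict. The groups lay apart in order, with Cadict lowest. Its log2 fold change was -1.32 with Cu-Cys (standard error 0.06, adjusted p = 1.14e-09) and -3.81 with Cadict (standard error 0.07, adjusted p = 3.29e-16).
Col1a2, the alpha-2 chain of type I collagen (Entrez 12843), had 583.7, 563.1 and 557.3 CPM in Ctrl, 309.8, 316.0 and 319.7 with Cu-Cys and 129.2, 117.7 and 126.2 with Cadict, again 3 levels without overlap. The log2 fold change was -2.19 with Cadict (standard error 0.05, adjusted p = 4.15e-15). With Cu-Cys it was -0.85 (standard error 0.05, adjusted p = 1.38e-08), short of 2-fold.
Its partner Col1a1 (Entrez 12842), which supplies most chains of a normal type I trimer, was much scarcer, at 20.3, 19.2 and 17.4 CPM in Ctrl, 6.65, 6.45 and 7.80 with Cu-Cys and 7.39, 7.50 and 5.29 with Cadict. Unlike Col1a2, it did not pass the test from Cu-Cys to Cadict on the TMM scale (adjusted p = 0.735), where library totals gave a log2 change of -0.94, and its log2 fold changes against Ctrl were -1.45 and -1.50. Per length, Col1a2 exceeded Col1a1 34.4-fold ± 1.92 in Ctrl (SD, n = 3), 52.2-fold ± 4.75 with Cu-Cys (SD, n = 3) and 21.7-fold ± 4.81 with Cadict (SD, n = 3).

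The type V chains, which set fibril width, were all lower with Cadict, though Col5a2 fell short of 2-fold with TMM. Col5a1 (Entrez 12831) had 193.1, 189.1 and 180.3 CPM in Ctrl and 88.3, 86.3 and 93.6 with Cu-Cys, and with Cadict it stood at 89.5, 81.2 and 85.6. On the TMM scale the treated groups overlapped each other, both below Ctrl, with log2 fold changes of -1.07 and -1.13. From Cu-Cys to Cadict, library totals gave -0.95 for Col5a1 and -0.80 for Col5a3, neither called. Col5a3, at 17.99, 17.0 and 16.0 CPM in Ctrl, had 5.72, 5.62 and 4.83 with Cu-Cys and 5.86, 6.36 and 4.95 with Cadict, with log2 fold changes of -1.65 and -1.57. Col5a2, the partner of Col5a1 in the common type V trimer, was called in neither with TMM. It had 116.6, 111.5 and 108.3 CPM in Ctrl, 98.1, 95.9 and 98.2 with Cu-Cys and 58.0, 60.6 and 59.0 with Cadict. Its log2 fold change with Cadict was -0.92 (adjusted p = 8.49e-11), just short of 2-fold, and library totals called it lower at -1.875. Of the scarce chains, Col27a1 had 3.98, 3.46 and 2.18 CPM in Ctrl, 3.23, 2.97 and 2.42 with Cu-Cys and 0.510, 0.784 and 1.09 with Cadict. It fell with Cadict, a log2 change of -2.002. Col11a2, the exception, rose with Cadict on the TMM scale from 1.52 ± 0.487 to 3.59 ± 0.394 CPM (SD, n = 3 each), a log2 change of 1.24. It was not called without Ctrl replicate 3 or under library totals (0.28). Its counts were 40, 43 and 22 in Ctrl and 38, 46 and 42 with Cadict.

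The promoter windows of Col1a2 and Col3a1 are printed because these chains were the most abundant of the fibril-forming group in Ctrl and fell with Cadict. They run from 250 bases before to 50 after the annotated start in RefSeq on GRCm38.p6, on the plus strand at chr6:4505368-4505667 and chr1:45311288-45311587. Capitals mark CCAAT and GGGCGG on either strand (the reverse reads ATTGG and CCGCCC).
Col1a2: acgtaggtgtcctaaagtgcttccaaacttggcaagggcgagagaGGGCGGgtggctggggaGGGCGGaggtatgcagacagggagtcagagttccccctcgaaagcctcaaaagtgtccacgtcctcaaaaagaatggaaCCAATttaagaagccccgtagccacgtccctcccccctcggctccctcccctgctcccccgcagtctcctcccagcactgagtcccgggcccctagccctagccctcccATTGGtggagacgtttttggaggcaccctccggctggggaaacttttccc
Col3a1: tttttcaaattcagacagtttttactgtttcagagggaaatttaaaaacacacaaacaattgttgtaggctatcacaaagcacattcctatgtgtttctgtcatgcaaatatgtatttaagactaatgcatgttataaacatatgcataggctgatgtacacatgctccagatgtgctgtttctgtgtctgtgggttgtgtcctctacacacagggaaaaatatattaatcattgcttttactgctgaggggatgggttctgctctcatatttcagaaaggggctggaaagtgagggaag
The Col1a2 window holds 2 matches to CCAAT and 2 to GGGCGG, whereas the Col3a1 window holds 0 of either. CCAAT occurs in 37.4% and GGGCGG in 35.7% of all 32851 windows. Of the 59 tested members 42 have a window in that table, and of their 46 windows 15 hold CCAAT and 28 hold GGGCGG. A match is a run of letters and not a shown binding site. Col3a1 and Col5a2 are neighbouring protein-coding genes on chromosome 1, and their log2 fold changes with Cadict were -3.81 and -0.92.

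**Figure D2:**
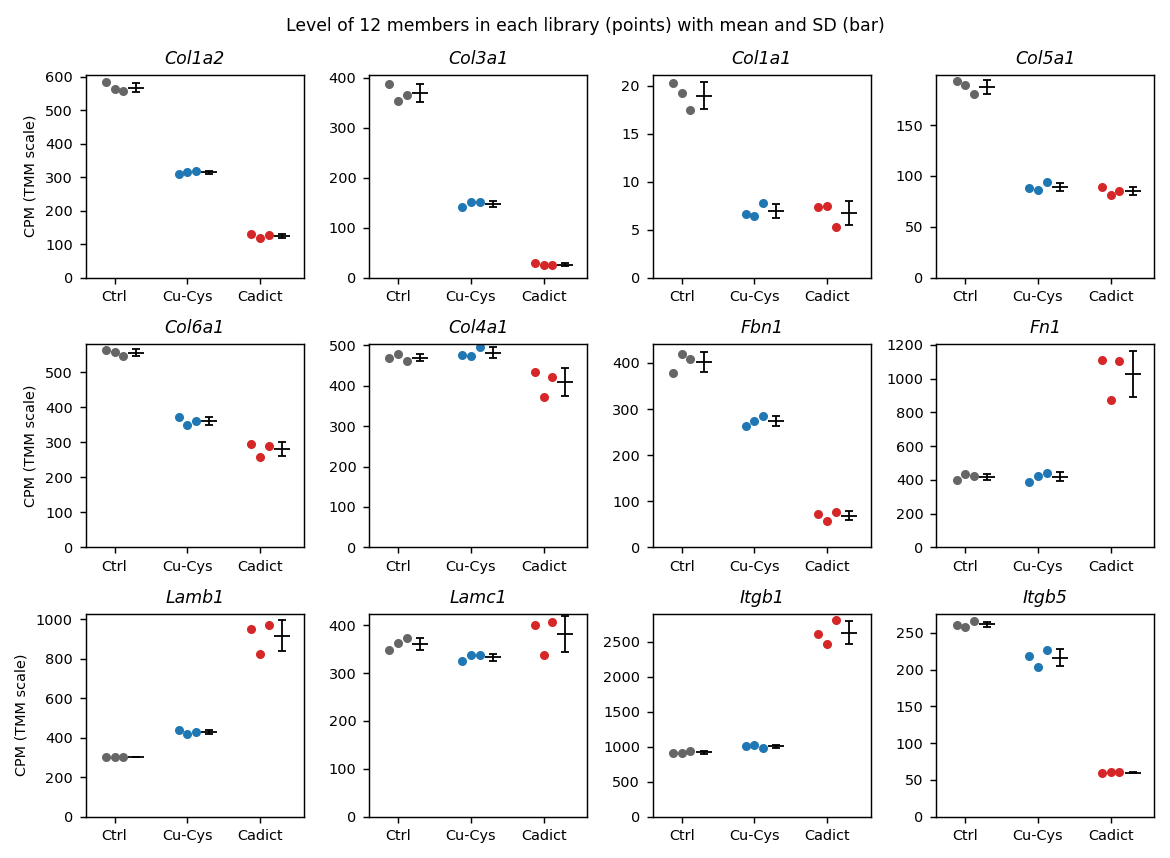
CPM on the TMM scale (y axis, from 0) of 12 members in each library (points) with the mean and SD (bar) of Ctrl, Cu-Cys and Cadict. Col1a2, Col3a1 and Fbn1 step down with each treatment without overlap. Col1a1 and Col5a1 are level between the treatments on this scale, while library totals gave log2 changes of -0.94 and -0.95 from Cu-Cys to Cadict. Lamb1, Fn1 and Itgb1 stand highest with Cadict on this scale (on the TPM scale Fn1 is not above Ctrl and Lamb1 is not above Cu-Cys).

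The enzymes that crosslink collagen were also lower. Lysyl oxidases are copper-dependent enzymes that link collagen and elastin molecules. Loxl1 (Entrez 16949) had 26.9, 23.9 and 25.2 CPM in Ctrl, 12, 10.7 and 11.5 with Cu-Cys and 7.65, 7.41 and 8.14 with Cadict. Its groups did not overlap, and the log2 fold changes were -1.15 (adjusted p = 4.56e-08) and -1.71 (adjusted p = 4.2e-11). Loxl2 (Entrez 94352) had 64.1, 62.8 and 62.9 CPM in Ctrl, 31.8, 35.0 and 32.9 with Cu-Cys and 21.8, 19.2 and 23.0 with Cadict. The groups lay apart in order. It was called with Cadict at -1.57 (adjusted p = 6.12e-12), and with Cu-Cys it was at -0.93, short of 2-fold. Of its 50-base stretches 45.0% also occur in transcripts of other annotated genes, so its count is uncertain. Lox itself reached at most 20 counts and was not tested.

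Type VI collagen took the largest share of collagen FPKM, and its 3 main chains lay below 2-fold with TMM. Under library totals Col6a1, Col6a2 and Col6a3 were called lower with Cadict, at -1.94, -1.90 and -1.82. Col6a1 (Entrez 12833) had 563.4, 558.1 and 545.1 CPM in Ctrl, 372.3, 349.3 and 361.0 with Cu-Cys and 294.0, 256.8 and 288.6 with Cadict. Its log2 fold changes were -0.62 (adjusted p = 7.35e-07) and -0.99 (adjusted p = 9.55e-11). Col6a2, its chromosomal neighbour, had 413.7, 403.6 and 400.0 CPM, then 280.1, 256.1 and 266.3, then 216.2, 203.3 and 211.0 in the same order, at -0.60 and -0.95, and the FPKM ratio of the 2 chains was 1.305 ± 0.0130, 1.29 ± 0.0195 and 1.28 ± 0.0555 in Ctrl, Cu-Cys and Cadict (SD, n = 3 each). Col6a3 (Entrez 12835) had 841.0, 907.8 and 898.6 CPM in Ctrl, 793.9, 849.8 and 887.2 with Cu-Cys and 503.5, 405.3 and 539.4 with Cadict. It overlapped Ctrl with Cu-Cys and lay below it with Cadict (log2 fold change -0.87, adjusted p = 6.4e-08). The minor chain Col6a4 had 1.298, 0.952 and 1.22 CPM in Ctrl and 0.277, 0.503 and 0.411 with Cu-Cys, a log2 change of -1.53 that was called with all 9 libraries (adjusted p = 0.000616). That call was lost when any one of the Ctrl or Cu-Cys libraries was left out. Col6a5 had 6, 2 and 4 counts in Ctrl, 1, 2 and 1 with Cu-Cys and 18, 18 and 25 with Cadict. It rose with Cadict from 0.174 to 1.73 CPM, a log2 change of 3.27.

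Basement membrane collagen IV took a larger share of collagen FPKM in both treated groups than in Ctrl, as did the fibril-associated chains. Col4a1 (Entrez 12826) had 469.1, 478.5 and 460.7 CPM in Ctrl, 476.2, 472.6 and 497.1 with Cu-Cys and 435.1, 371.2 and 422.2 with Cadict. With Cu-Cys it overlapped Ctrl (adjusted p = 0.62), and with Cadict it was lower by a small amount, -0.20 on the log2 scale (adjusted p = 0.00488). Col4a2 had 347.1, 353.2 and 331.8 CPM in Ctrl, 373.9, 349.0 and 376.7 with Cu-Cys and 290.1, 257.8 and 295.2 with Cadict. It did not pass with Cu-Cys (adjusted p = 0.208) and was at -0.29 with Cadict (adjusted p = 0.000214). The Col4a1 to Col4a2 ratio in FPKM was 1.33 ± 0.0198, 1.28 ± 0.0394 and 1.42 ± 0.0369 in the same order (SD, n = 3 each). The Cadict libraries lay above all others in that ratio. Col4a5, a chain of another type IV network, had 12.1, 11.4 and 11.7 CPM in Ctrl, 7.01, 7.22 and 8.53 with Cu-Cys and 3.06, 2.62 and 4.03 with Cadict, and fell with Cadict at -1.85 on the log2 scale. Its partners Col4a3, Col4a4 and Col4a6 reached at most 4, 9 and 1 counts and were not tested.
Col4a1 and Col4a2 are read in opposite directions from starts 21 bases apart in the RefSeq windows. The stretch that both windows share is shown because the windows overlap, at chr8:11312777-11312854 on GRCm38.p6, plus strand, with GGGCGG in capitals.
Col4a1 and Col4a2 overlap: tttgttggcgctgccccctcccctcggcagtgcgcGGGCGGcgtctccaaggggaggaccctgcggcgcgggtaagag

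Among collagens outside these types, Col8a1, a short-chain network collagen (Entrez 12837), was level with Cu-Cys and dropped with Cadict. It had 141.6, 144.8 and 140.9 CPM in Ctrl, 140.7, 140.8 and 147.5 with Cu-Cys and 43.5, 35.4 and 42.4 with Cadict, a log2 change of -1.82 (standard error 0.07, adjusted p = 6.01e-13). Col7a1, the anchoring fibril collagen, fell with Cadict at -1.15 (30.2 ± 3.71 to 13.7 ± 3.39 CPM, SD, n = 3 each). Col16a1, a fibril-associated collagen, had 270.9, 259.1 and 237.1 CPM in Ctrl, 221.3, 200.9 and 217.8 with Cu-Cys and 291.5, 277.5 and 265.1 with Cadict, and was called in no comparison. Col18a1, a basement membrane collagen, was at 24.1, 21.6 and 42.4 CPM and missed 2-fold with Cadict (0.81, adjusted p = 9.48e-08). Under library totals the sign for Col18a1 turned, since its change is smaller than the shift of the typical gene.

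Within each library the makeup of the collagen FPKM changed, a measure that needs no scaling between libraries. Fibril-forming chains took 28.2% ± 0.600 of it in Ctrl, 19.8% ± 0.512 with Cu-Cys and 12.2% ± 0.377 with Cadict (SD, n = 3 each). Type IV chains took 16.0% ± 0.242, 22.3% ± 0.204 and 25.4% ± 0.632 (SD, n = 3 each). In the fibril-forming and type IV families the 3 groups did not overlap. Type VI chains stayed within 42.8% and 44.8% in all 9 libraries, with overlapping groups. An exact permutation test of 3 against 3 libraries cannot go below a two-sided p of 0.1, which is the value of each comparison without overlap. Fibril-associated chains, for which no such test was run, also gained. They took 6.80% ± 0.354 in Ctrl, 7.67% ± 0.356 with Cu-Cys and 14.2% ± 1.28 with Cadict (SD, n = 3 each). These within-library measures were chosen after the values were seen.

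**Figure D3:**
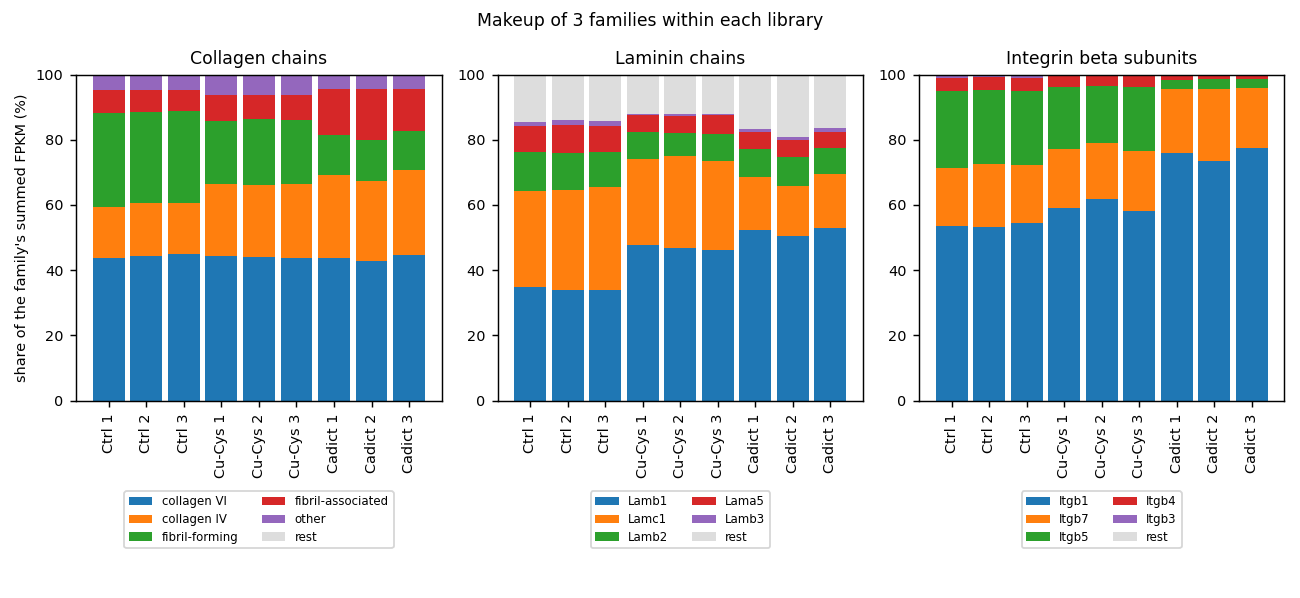
Share of the summed FPKM of collagen chains, laminin chains and integrin beta subunits (y axis, percent) taken by each part in each of the 9 libraries (bars, with the remainder in grey). Fibril-forming collagens shrink from 28.2% to 12.2% between Ctrl and Cadict, Lamb1 grows from 34.3% to 51.9% and Itgb5 shrinks from 23.1% to 2.68%.

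The other matrix proteins moved in opposite directions. Fbn1, the core of elastic microfibrils (Entrez 14118), had 378.9, 419.3 and 407.7 CPM in Ctrl, 262.3, 273.5 and 285.7 with Cu-Cys and 71.2, 57.0 and 77.3 with Cadict. Its log2 fold change was -2.55 with Cadict (standard error 0.09, adjusted p = 2.14e-13) and -0.55 with Cu-Cys, short of 2-fold. Reads of Fbn1 cannot all be told from an antisense gene, which overlaps 20.1% of its exon bases, because no source states that counting used strand.
Fn1, fibronectin (Entrez 14268), bridges integrins and collagen. It had 400.3, 432.1 and 419.9 CPM in Ctrl, 389.0, 423.7 and 440.0 with Cu-Cys and 1110, 870.8 and 1107 with Cadict. The Cu-Cys libraries overlapped Ctrl (adjusted p = 0.998), and the Cadict libraries lay above all others, at a log2 change of 1.3021 (standard error 0.08, adjusted p = 3.36e-10) with TMM and -0.01 with limma on TPM.
Thbs1, thrombospondin-1, an adhesion glycoprotein (Entrez 21825), had 39.7, 34.3 and 38.7 CPM in Ctrl, 28.7, 28.1 and 26.3 with Cu-Cys and 105, 82.8 and 112 with Cadict. It rose with Cadict at 1.41 with TMM (adjusted p = 7.05e-10). That call ended under library totals (0.46) and with limma on FPKM and on TPM. Over the alternatives its log2 change was as low as 0.0954. Sparc, a collagen-binding glycoprotein and per length the most abundant member in Ctrl at 726 FPKM, had 1346, 1324 and 1301 CPM in Ctrl, 1031, 1073 and 1076 with Cu-Cys and 991.8, 1001 and 917.8 with Cadict. Its groups did not overlap, and it was not called. Hspg2, perlecan of the basement membrane, had 520.9, 613.2 and 546.6 CPM in Ctrl, 382.2, 409.0 and 490.9 with Cu-Cys and 436.8, 393.3 and 437.0 with Cadict, also not called. Nid1 did not exceed 0.779 CPM in any library, and Nid2 reached at most 2 counts.

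Some laminin chains rose with Cadict on the TMM scale. Of 11 chains 7 were tested. With Cadict against Ctrl 2 were called higher and 0 lower, beside 20.7% and 27.1% of all tested genes. Against Cu-Cys 4 were called higher and 0 lower, beside 18.6% and 23.6% of all tested genes. All of these calls ended under library totals. Lamb1, the beta-1 chain (Entrez 16777), had 304.3, 301.7 and 300.0 CPM in Ctrl, 438.6, 416.4 and 426.5 with Cu-Cys and 951.1, 824.1 and 967.5 with Cadict. All 3 groups lay apart, the log2 change was 1.60 with Cadict (standard error 0.06, adjusted p = 7.2e-13), and with Cu-Cys it was 0.50 (adjusted p = 1.01e-05), short of 2-fold.
Lamc1, the gamma-1 chain that pairs with it (Entrez 226519), had 347.5, 362.7 and 373.2 CPM in Ctrl, 325.1, 337.7 and 336.7 with Cu-Cys and 399.4, 337.5 and 407.0 with Cadict. The Cadict and Ctrl libraries overlapped (adjusted p = 0.256). The FPKM of Lamb1 over that of Lamc1 was 1.12 ± 0.0481 in Ctrl, 1.72 ± 0.0819 with Cu-Cys and 3.22 ± 0.0532 with Cadict (SD, n = 3 each), without overlap.
Lamb3, the beta-3 chain (Entrez 16780), fell with Cu-Cys. It had 7.48, 8.62 and 7.72 CPM in Ctrl, 3.09, 3.61 and 3.51 with Cu-Cys and 10.6, 11.1 and 13.1 with Cadict. The log2 change was -1.22 with Cu-Cys (adjusted p = 1.95e-06) and 1.77 between Cadict and Cu-Cys (adjusted p = 1.79e-09). The latter call ended under library totals (0.88), and Cadict against Ctrl was 0.55 with TMM (adjusted p = 0.000196) but -0.41 with library totals (adjusted p = 0.00246) and -0.58 with limma on TPM. Lamb2 had 99.9, 97.4 and 91.9 CPM in Ctrl, 76.5, 62.4 and 72.2 with Cu-Cys and 149.9, 144.0 and 144.5 with Cadict, and was called only between Cadict and Cu-Cys, at 1.05. That call ended under library totals (0.17), without a filter on low counts and without Cu-Cys replicate 2, and limma on TPM gave -0.097.
Lama5 was the single alpha chain tested, at 17.1 ± 0.95 FPKM in Ctrl, 10.7 ± 1.04 with Cu-Cys and 10.9 ± 0.848 with Cadict (SD, n = 3 each), where Lamc1 was at 62.7, 55.1 and 34.2. The alpha chain transcripts were thus scarcer than those of the beta-1 and gamma-1 chains in every group. Lama5 had 142.9, 158.4 and 143.8 CPM in Ctrl, 92.2, 92.0 and 108.7 with Cu-Cys and 192.9, 171.1 and 187.2 with Cadict, with -0.60 in Cu-Cys against Ctrl (adjusted p = 9.87e-06), short of 2-fold. Lama3, an alpha partner of Lamb3, had 8, 3 and 8 counts in Ctrl, 3, 5 and 7 with Cu-Cys and 19, 8 and 15 with Cadict. Lama1, Lama2 and Lama4 reached at most 1, 1 and 12 counts.
The Lamb1 promoter window is shown as that of the laminin chain with the largest rise with Cadict, at chr12:31265043-31265342 on GRCm38.p6, plus strand (RefSeq), with the same capitals as before.
Lamb1: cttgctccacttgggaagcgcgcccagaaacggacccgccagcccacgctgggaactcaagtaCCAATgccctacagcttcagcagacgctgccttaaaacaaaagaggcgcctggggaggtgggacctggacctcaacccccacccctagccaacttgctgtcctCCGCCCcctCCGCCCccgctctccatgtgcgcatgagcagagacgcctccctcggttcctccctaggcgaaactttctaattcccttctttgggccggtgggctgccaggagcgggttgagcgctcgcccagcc
It holds 1 match to CCAAT and 2 to GGGCGG.

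Integrin subunits were dominated by Itgb1, the shared beta subunit of most collagen, laminin and fibronectin receptors (Entrez 16412). It had 903.5, 909.4 and 938.8 CPM in Ctrl, 1013, 1025 and 983.7 with Cu-Cys and 2610, 2470 and 2804 with Cadict. The Cadict libraries lay above all others, with a log2 change of 1.52 (standard error 0.05, adjusted p = 3.42e-13), and Cu-Cys was at 0.14 (adjusted p = 0.0463). Per length it took 53.7% ± 0.666 of the FPKM of all beta subunits in Ctrl, 59.6% ± 1.95 with Cu-Cys and 75.6% ± 1.94 with Cadict (SD, n = 3 each).
The abundant alpha partners did not rise with it. Itga3, the laminin receptor subunit, had 296.6, 304.8 and 282.1 CPM in Ctrl, 305.6, 293.1 and 305.6 with Cu-Cys and 236.8, 211.2 and 234.4 with Cadict (log2 change with Cadict -0.37, adjusted p = 9.63e-06). Itga5, the fibronectin receptor subunit, had 123.7, 124.6 and 124.1 CPM in Ctrl, 125.6, 110.2 and 124.8 with Cu-Cys and 112.2, 102.2 and 110.7 with Cadict (-0.20 with Cadict, adjusted p = 0.00577). Itgav, which pairs with several beta subunits, had 217.5, 216.0 and 218.4 CPM in Ctrl, 216.7, 245.6 and 231.5 with Cu-Cys and 231.6, 192.4 and 246.4 with Cadict, with overlap (adjusted p = 0.613). The FPKM of Itgb1 over that of Itga3 went from 3.66 ± 0.216 in Ctrl and 3.92 ± 0.168 with Cu-Cys to 13.5 ± 0.563 with Cadict (SD, n = 3 each). Only the Cadict group stood apart in that ratio, since Ctrl and Cu-Cys overlapped.
Itgb1's promoter window is shown because its transcript was the most abundant beta subunit and rose with Cadict, at chr8:128685404-128685703 on GRCm38.p6, plus strand (RefSeq).
Itgb1: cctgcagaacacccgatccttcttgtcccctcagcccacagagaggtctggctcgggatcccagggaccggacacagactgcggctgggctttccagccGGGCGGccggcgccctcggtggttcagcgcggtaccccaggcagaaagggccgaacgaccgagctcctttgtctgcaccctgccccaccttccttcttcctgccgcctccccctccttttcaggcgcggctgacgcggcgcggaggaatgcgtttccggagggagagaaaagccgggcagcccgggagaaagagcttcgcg
It holds 1 match to GGGCGG and 0 to CCAAT. Of the 10 members called higher with Cadict, 5 have a window, and 1 of these holds CCAAT and 4 hold GGGCGG.

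The remaining beta subunits went different ways. Itgb5, a partner of Itgav in vitronectin binding (Entrez 16419), had 260.3, 258.5 and 265.7 CPM in Ctrl, 218.6, 203.8 and 226.7 with Cu-Cys and 58.8, 60.7 and 60.4 with Cadict. The log2 change was -2.12 with Cadict (standard error 0.05, adjusted p = 9.33e-15) and -0.27 with Cu-Cys (adjusted p = 0.000396), short of 2-fold. The FPKM ratio of Itgb5 to Itgav was 3.18 ± 0.0308, 2.43 ± 0.304 and 0.738 ± 0.117 in Ctrl, Cu-Cys and Cadict (SD, n = 3 each).
Itgb3, the other Itgav partner of this kind (Entrez 16416), showed the reverse order of treatments: 20.5, 17.97 and 20.8 CPM in Ctrl, 7.61, 7.59 and 8.66 with Cu-Cys and 12.2, 11.3 and 14.2 with Cadict. It fell with Cu-Cys at -1.31 (adjusted p = 1.2e-07), and with Cadict it was at -0.65 (adjusted p = 1.51e-05), short of 2-fold. Under library totals Cadict was not above Cu-Cys for this gene (-0.22, adjusted p = 0.0813), where TMM gave 0.66 (adjusted p = 4.56e-05).
Itgb7, a beta subunit known from lymphocytes (Entrez 16421), had 182.7, 199.6 and 183.7 CPM in Ctrl, 187.9, 171.7 and 190.0 with Cu-Cys and 415.0, 447.7 and 403.0 with Cadict. It rose with Cadict at 1.16 (adjusted p = 2.64e-11) with TMM and was at -0.14 with limma on TPM. Its alpha partners Itga4 and Itgae reached at most 2 and 5 counts in any library, although Itgb7 was at 102 FPKM in Ctrl. Itgb2, the leukocyte beta subunit, had 0.865, 0.693 and 0.741 CPM in Ctrl, 1.06, 0.869 and 1.32 with Cu-Cys and 3.48, 2.88 and 2.52 with Cadict. It rose with Cadict at 1.94 on the log2 scale with TMM, a call that ended under library totals (0.99). Its counts were 20, 16 and 17 in Ctrl and 41, 33 and 30 with Cadict. The Itgb2 partners Itgal and Itgam reached at most 3 and 2 counts. The leukocyte marker Ptprc reached at most 4 counts, and the summed CPM of the 5 leukocyte markers in the table, mostly Cd68, was 3.33 to 3.72 in Ctrl, 2.42 to 2.91 with Cu-Cys and 16.0 to 18.7 with Cadict. MC38 is 1 cell line grown without other cells, and what part these marker differences have in the values of Itgb2 and Itgb7 was not tested.
Itgb4, the hemidesmosome subunit, had 68.8, 66.1 and 69.7 CPM in Ctrl, 59.2, 50.6 and 56.2 with Cu-Cys and 46.3, 35.0 and 42.8 with Cadict, and was not called (-0.72 with Cadict, adjusted p = 9.33e-07). Itga6, its obligate partner, was at 38.0, 48.8 and 25.1 CPM.

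Of the scarce alpha subunits, Itga7, a muscle laminin receptor (Entrez 16404), rose with Cadict. It had 1.21, 1.08 and 0.785 CPM in Ctrl, 0.877, 1.05 and 0.775 with Cu-Cys and 6.29, 8.45 and 4.87 with Cadict, a log2 change of 2.66 (standard error 0.23, adjusted p = 2.06e-08). Itga1, a collagen receptor subunit, was called lower in both comparisons with Ctrl, at 1.64, 1.299 and 1.53 CPM in Ctrl, 0.554, 0.732 and 0.547 with Cu-Cys and 0.510, 0.261 and 0.420 with Cadict. Its call with Cu-Cys was lost when any one of the Ctrl or Cu-Cys libraries was left out. Itga9 had 0 counts in all Ctrl and Cu-Cys libraries and 7, 8 and 6 with Cadict, at least 4.58-fold higher than Ctrl on the TMM scale and 2.36-fold on library totals, against 3 counts per library, and it was not tested. Itgbl1, Itgb1bp1, Itgb1bp2 and Itgb3bp match the symbol rule but encode no integrin subunit. Itgbl1, an integrin-like secreted protein, had 99.0, 99.3 and 107.5 CPM in Ctrl, 104.8, 106.9 and 101.0 with Cu-Cys and 46.7, 54.4 and 52.0 with Cadict, with a log2 change of -0.998 with Cadict that lay just inside 2-fold, so it was not called there, and it was called lower between Cadict and Cu-Cys at -1.03.

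Library totals in place of TMM move every Cadict value down by a like amount, which by construction takes calls from rises and adds calls to falls. With them, 34 members were called lower with Cadict in place of 16 and 2 called higher in place of 10. The 2 were Col6a5 and Itga7. Itgb1, Lamb1, Fn1, Thbs1 and Itgb7 kept a positive sign under library totals, at 0.57, 0.65, 0.35, 0.46 and 0.21 on the log2 scale. Limma on the deposited TPM turned the sign of Fn1 and Itgb7. With DESeq2's size factors all 10 rises and 15 of 16 falls remained called, without Itgb8.

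**Figure D4:**
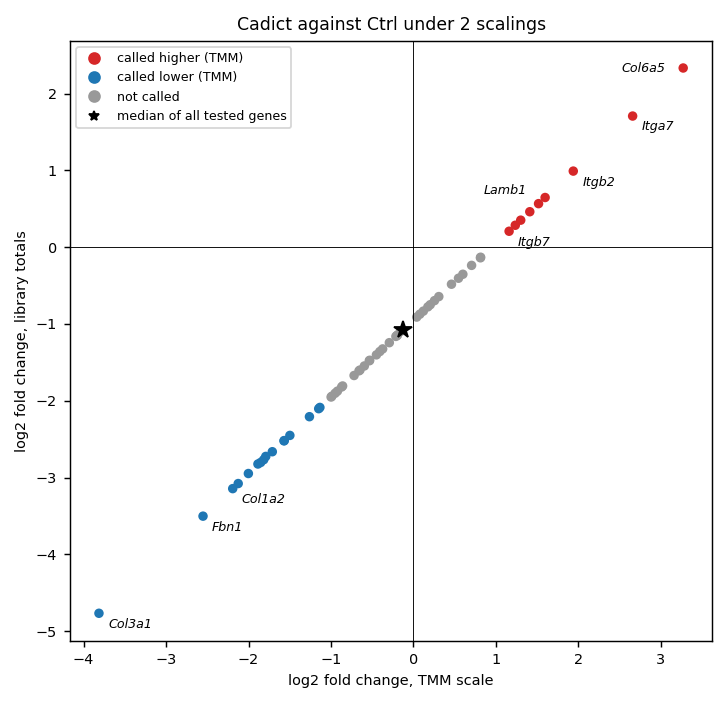
Log2 fold change of 58 of the 59 tested members in Cadict against Ctrl with TMM (x axis) and with library totals (y axis). Points are colored by their TMM call and the star marks the median of all tested genes, at -0.13 and -1.08. The points lie close to 1 line, and the members called higher sit above 0 on both axes, most of them below 1 on the y axis.

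The members' transcripts are long. The effective length implied by each gene's deposited count and FPKM had a median of 5368 bases over 58 tested members and 2613 over 11927 tested genes. With tested genes in 4 equal groups of length, 42 members were in the longest, above 4074 bases. In Cadict against Ctrl the genes of the shortest group had a median log2 change of 0.48 and those of the longest -0.41, where the members' median was -0.53. In Cu-Cys against Ctrl it was 0.10 and -0.06, and the members in the longest group were at -0.31. Length thus moved with the changes of all genes with Cadict, and its part in the members' values was not tested.

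**Figure D5:**
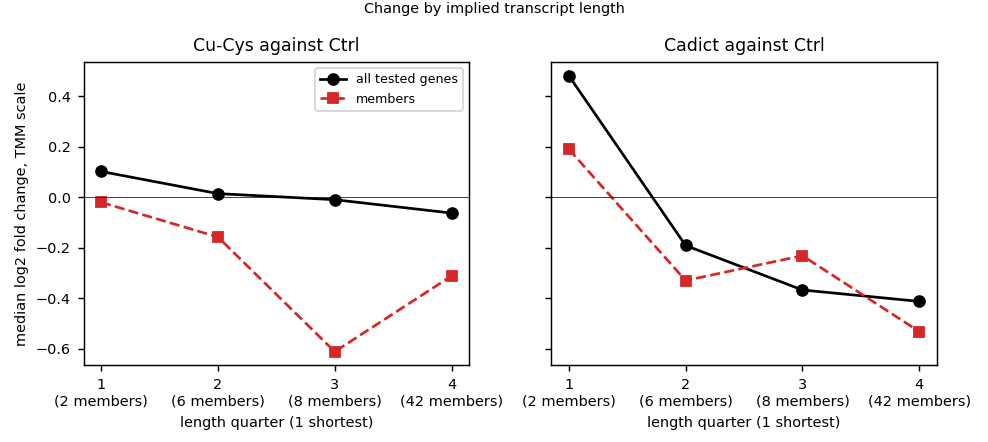
Median change (y axis, log2, TMM scale) of every tested gene and of the members in 4 equal groups of implied transcript length (x axis, 1 is shortest, with the number of members). With Cadict the median of all genes runs from 0.48 to -0.41, and with Cu-Cys the members lie below all genes in each group.

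Genes that build, cut or read the matrix were counted in lists that hold no member. Of 27 collagen assembly enzymes and chaperones, all tested, 6 were called higher and 5 lower with Cadict and 0 with Cu-Cys. Serpinh1, the collagen chaperone HSP47, rose from 990.0 to 2926 CPM with Cadict (log2 change 1.56, adjusted p = 4.73e-14), and Ppib and Plod3 rose at 1.54 and 1.52. Of 25 tested matrix proteases and inhibitors, 9 were called higher and 6 lower with Cadict, and 2 lower with Cu-Cys. Plaur, the urokinase receptor, rose at 4.04 (adjusted p = 6.67e-17), Timp1, a metalloprotease inhibitor, at 3.17 and Ctsb, a lysosomal cathepsin, at 2.03.
Of 29 tested other matrix glycoproteins and proteoglycans, 8 were called higher and 5 lower with Cadict, and 2 lower with Cu-Cys. Ccn2, a matricellular growth factor, rose at 3.88 and Spp1, osteopontin, at 2.07, whereas the proteoglycan gene Vcan fell at -2.01. Of 38 tested focal adhesion adaptors and kinases, 13 were called higher and 5 lower with Cadict and 0 with Cu-Cys. The kinase gene Fyn rose at 2.93 and Zyx, zyxin of focal adhesions, at 2.66, whereas Kank2 fell at -2.89. Of 18 tested matrix receptors other than integrins, 3 were called higher and 4 lower with Cadict and 0 with Cu-Cys, among them Cd44, a hyaluronan receptor, at 2.17, Dag1, dystroglycan, at -3.14 and Hmmr, another hyaluronan receptor, at -2.12. The Cadict counts stand beside the background of 20.7% higher and 27.1% lower, and under library totals the counts called higher with Cadict were 0 assembly enzymes, 5 proteases and inhibitors, 2 glycoproteins and proteoglycans, 3 focal adhesion genes and 2 receptors. The counts called lower were then 11, 10, 11, 11 and 7.

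Across comparisons on the TMM scale, Col3a1 alone was called lower in all 3. Col1a1, Col5a1, Col5a3, Itga1 and Loxl1 were called lower with both treatments against Ctrl and not between the treatments with TMM. Col1a2, Col4a5, Col7a1, Col8a1, Col27a1, Fbn1, Itgb5 and Itgb1bp2 were called lower with Cadict against Ctrl and against Cu-Cys. Members called higher with Cadict against both included Col6a5, Fn1, Itga7, Itgb1, Itgb2, Itgb7, Lamb1 and Thbs1. The 28 tested members that no comparison called with TMM include Sparc, Hspg2, Col4a1, Col4a2, Col6a1 to Col6a3, Col5a2, Lama5, Lamc1, Itga3, Itga5 and Itgav. Under library totals these were called lower with Cadict against Ctrl, at -1.94 to -1.15, except Lama5, Lamc1 and Itgav.
Mesenchymal markers were measured beside the collagens. The summed CPM of 7 fibroblast and mesenchymal markers, mostly Vim, was 2183 to 2230 in Ctrl, 2166 to 2277 with Cu-Cys and 1949 to 2333 with Cadict, while 2 of them, Lum and Thy1, never exceeded 1 count. In Ctrl, Cu-Cys and Cadict, Pdgfra was at 39.1, 22.8 and 6.49 CPM and Pdgfrb at 76.8, 59.06 and 44.75. Vim was level at 2056, 2103 and 2060 CPM, and Acta2 was at 38.1, 33.9 and 41.85. The scarce Dcn was at 0.608, 0.565 and 1.08 CPM, so the markers did not move together. The 6 epithelial markers in the table summed to 5.33 to 6.83 CPM in Ctrl, 3.97 to 4.38 with Cu-Cys and 24.0 to 26.1 with Cadict. The 4 endothelial markers summed to at most 3.61 CPM in any library. What part such differences have in the members' values was not tested.

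Members below the filter were 26, none above 20 counts in any library, and 13 of them never exceeded 3 counts. With their highest counts they were Lama3 at 19, Lox at 20, Col2a1 at 11, Lama4 at 12, Col4a4 at 9, Col15a1 at 8, Itga9 at 8, Itga2 at 7, Col14a1 at 7, Itgb6 at 6, Col22a1 and Itgae at 5 and Col4a3 at 4. Itgal reached 3 counts, and Col23a1, Col24a1, Itga4, Col8a2, Itgam and Nid2 reached 2. Lama2, Col4a6, Itga11, Col6a6, Col10a1 and Lama1 reached 1.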

How the data were processed

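Messenger RNA of 9 MC38 libraries, 3 each of Ctrl, Cu-Cys and Cadict, was analysed from 1 deposited table. Per the submitters' processing notes the tools were HISAT2 2.1.0, Bowtie2 2.3.4.3 and RSEM 1.3.1, with the mouse build GRCm39 and the human build GRCh38.p13 named and no role given. The authors deposited expected counts per gene from RSEM, with FPKM and TPM computed by the authors from them. The authors also deposited a normalized signal, counts divided by 1 size factor per library, which was not used here. The 12 columns of group averages were not used. Whether counting used strand, and its annotation, are not given in the sources used here. Labels and paper name different extraction kits and sequencers.

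Expected counts were rounded and tested in 1 fit over all 9 libraries (edgeR 4.0.16, TMM, filterByExpr, quasi-likelihood test, Benjamini-Hochberg over 11949 genes). DESeq2 1.42.0 and limma 3.58.1 gave alternatives. Group names CC and CCGE were read as Cu-Cys and Cadict. The members and gene lists were chosen with earlier results of these data known. Named by rule were the 30 most abundant tested members, members called in Cu-Cys against Ctrl, the 3 largest rises and falls with Cadict among the rest, partner chains, untested members, and in each other list the 3 genes of at least 10 CPM with the largest change. Col7a1, Col11a2, Col18a1, Itgb8, Nid1, Itgb1bp1, Itgb1bp2 and Itgb3bp were named after their values were seen. Same-numbered libraries were not paired: their deviations correlated at -0.148 to 0.145 over 9706 genes. Coordinates and sequences are from RefSeq (GRCm38.p6) and shared stretches from GENCODE (GRCm38), not from the build of the files. 1 member counted in the totals is not reported here. The code was tested on simulated data.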

Additional observations from a re-analysis of the deposited data

How the results depend on the processing

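The direction of most named members held in the alternatives, and most falls stayed called. Rises with Cadict mostly stayed called with TMM or DESeq2 size factors, and most lost their call with library totals, FPKM and TPM. Those settings moved the counts of calls most. For Cadict against Ctrl, the members' median log2 fold change of -0.41 became -0.29 with DESeq2 size factors, -1.36 with library totals, -0.084 without a filter on low counts, -0.45 with at least 10 counts in every library, -0.29 with DESeq2's Wald test, and -0.79, -1.15 and -1.13 with limma on FPKM plus 1, FPKM plus 0.1 and TPM plus 1. Members called higher then numbered 2 with library totals and 0, 1 and 0 with those 3, and members called lower 34 with library totals and 26, 32 and 31. By the p threshold of 0.05 alone, 15 were higher and 32 lower. Leaving out 1 library gave medians of -0.43 to -0.32, 10 to 11 higher and 15 to 17 lower. For Cu-Cys against Ctrl, the median was -0.39 with library totals, -0.17 with FPKM plus 1 and -0.27 with TPM. Leaving out 1 library gave -0.36 to -0.30 and 7 to 9 called lower, and p alone gave 4 higher and 29 lower. For Cadict against Cu-Cys, the median of -0.05 turned positive with DESeq2 size factors (0.0399), no filter (0.0659) and DESeq2's Wald test (0.0318), and was -0.94 with library totals, -0.13 with at least 10 counts, and -0.46, -0.89 and -0.71 with FPKM plus 1, FPKM plus 0.1 and TPM. Called higher were 2 with library totals and 0, 2 and 0 with those 3, and called lower 27 with library totals and 20, 27 and 25. By p alone 23 were higher and 25 lower. Leaving out 1 library gave -0.14 to -0.0167, 10 to 13 higher and 7 to 11 lower.

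With library totals, FPKM plus 1 and FPKM plus 0.1, Cadict against Ctrl turned for Lama5 (-0.64, -0.60, -0.64), Lamb2 (-0.35, -0.34, -0.35) and Lamb3 (-0.41, -0.28, -0.38), and Cadict against Cu-Cys for Lamc1 (-0.69, -0.68, -0.70), Col16a1 (-0.50, -0.46, -0.47) and Itgb3 (-0.22, -0.14, -0.22). With TPM, Cadict against Ctrl turned for Fn1 (-0.0149), Itgb7 (-0.14), Lama5 (-0.94), Lamb2 (-0.68) and Lamb3 (-0.58), Cu-Cys against Ctrl for Itgb1 (-0.0076), and Cadict against Cu-Cys for Lamb1 (-0.0615), Lamc1 (-0.95), Col16a1 (-0.74), Lama5 (-0.23), Lamb2 (-0.10), Itgb3 (-0.35) and Col6a4 (-0.0128). The cause was not tested. With the replicate block, an added check since the numbers do not pair the libraries, 15 of 16 falls with Cadict (without Itgb8) and 7 of 9 with Cu-Cys (without Col6a4 and Itga1) remained called. Without Cadict replicate 1, the library whose loss mattered most, Col27a1, Itgb1bp2 and Itgbl1 lost their calls against Cu-Cys. At this depth, members under about 1 CPM rest on few counts.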
